A study of Mus musculus with 8 samples.

Results

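Creatine kinases move a phosphate group between ATP and creatine, and so link the places where a cell makes ATP with the places where it is spent. Mitochondrial kinases sit in the space between the mitochondrial membranes, where they take ATP made inside and pass on phosphocreatine, and cytosolic kinases turn phosphocreatine back into ATP. Creatine itself is either built in a pair of steps, the first carried out by Gatm and the second by Gamt, or taken up from outside the cell through the transporter Slc6a8. In brain and neurons Ckmt1 and Ckb are the usual mitochondrial and cytosolic forms, whereas Ckmt2 and Ckm are known from heart and skeletal muscle. The 6 genes described here, Ckmt1, Ckmt2, Ckb, Ckm, Gamt and Gatm, were taken by symbol from the 31053 genes in the deposited tables, and the list was chosen by a readout: Ckmt1 was included for being among the larger differences between temperatures in all cells and in G1 cells. Its values in those contrasts are therefore given as a description and were not tested.

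The cells were SN4741, a clonal mouse line labelled as neural precursor cells, which was derived from embryonic substantia nigra of transgenic mice. It carries a temperature-sensitive SV40 large T antigen driven by the tyrosine hydroxylase promoter. The line is karyotypically unstable. Of the droplet single-cell libraries, 4 were made from cells kept at 37 °C in 10% fetal bovine serum and 4 from cells moved, 24 hours after passage, to 39 °C in 0.5% serum for 48 hours, and all 8 carry the same transgene. Temperature and serum changed together, so the part of each cannot be told apart in any comparison below, and a difference named by temperature always includes the serum. The labels do not say whether the replicates were separate passages, so every p-value measures the spread between these libraries, which may be technical.

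Of 19125 deposited cells, 18351 passed the study's filters on gene number and mitochondrial share, with 8550 at 37 °C and 9801 at 39 °C and between 17166686 and 29633818 unique molecular identifiers (UMIs, one per captured RNA molecule) in a library. G1 cells made up 17.5 to 25.0% of the 37 °C libraries and 78.7 to 82.2% of the 39 °C libraries, and the median mitochondrial share of UMIs was 7.55 to 7.89% against 8.04 to 8.85%. G2M cells were few at 39 °C, between 28 and 181 in a library, and the smallest group was in replicate 1. No pair of libraries shared more than 5 cell barcodes. Among the 8 neural precursor markers Vim, Hes1, Nes and Sox2 were present, 4 stayed under 1 CPM (UMI counts scaled to a common library total) in every library and Hes5 had no UMI. Of the 8 dopaminergic markers 6 stayed under 1 CPM in every library. Among these was Th, an enzyme of dopaminergic and other catecholaminergic neurons, with 7 UMIs in all, whereas Foxa2 had 2829 and Nr4a2 847. The summed level of the 24 striated muscle markers was 22.3 to 25.2 CPM at 37 °C and 17.9 to 20.6 CPM at 39 °C, 18 of them stayed under 1 CPM in every library, and the myogenic regulators Myod1, Myf5 and Myf6 had no UMI.

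Ckmt1 lies on chromosome 2 at 121357714 to 121363737 on the forward strand (GRCm38, GENCODE M21). Gatm is on the same chromosome at 122594467 to 122611303 on the reverse strand, Ckb on chromosome 12 at 111669361 to 111672338 on the reverse strand, Gamt on chromosome 10 at 80258151 to 80261012 on the reverse strand, Ckm on chromosome 7 at 19404776 to 19422841 on the forward strand, and Ckmt2 on chromosome 13 at 91853387 to 91876885 on the reverse strand. RefSeq places a pair of starts in Ckmt1, and the stretches before them are shown because Ckmt1 differed from Ckb and Gamt in its direction between temperatures. Each stretch is genomic sequence of the coding strand, from 5′ to 3′, ending just before the start (GRCm38.p6, RefSeq), and capitals mark matches on either strand to the TATA box with letters TATAAA, the CCAAT box with letters CCAAT, the GC box with letters GGGCGG and the E-box with letters CAGCTG. The stretch before the first Ckmt1 start, chr2:121357526-121357713, ends at an exon that GENCODE annotates further upstream. The others are chr2:121358360-121358609 for the second Ckmt1 start, chr12:111672339-111672588 for Ckb and chr10:80261013-80261262 for Gamt.

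Ckmt1, first start: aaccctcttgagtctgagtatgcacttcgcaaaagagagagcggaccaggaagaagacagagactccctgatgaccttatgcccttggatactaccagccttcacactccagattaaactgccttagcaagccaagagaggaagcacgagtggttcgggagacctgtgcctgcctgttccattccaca

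Ckmt1, second start: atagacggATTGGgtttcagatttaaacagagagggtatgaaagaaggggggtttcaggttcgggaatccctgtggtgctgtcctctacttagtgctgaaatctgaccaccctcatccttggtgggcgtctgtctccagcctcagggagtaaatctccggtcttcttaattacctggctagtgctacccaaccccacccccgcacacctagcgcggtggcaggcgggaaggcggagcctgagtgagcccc

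Ckb: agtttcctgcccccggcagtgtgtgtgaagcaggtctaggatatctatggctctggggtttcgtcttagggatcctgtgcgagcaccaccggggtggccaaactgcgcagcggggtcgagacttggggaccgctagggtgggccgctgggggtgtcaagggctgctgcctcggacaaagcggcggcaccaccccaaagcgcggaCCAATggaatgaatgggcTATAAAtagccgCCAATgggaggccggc

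Gamt: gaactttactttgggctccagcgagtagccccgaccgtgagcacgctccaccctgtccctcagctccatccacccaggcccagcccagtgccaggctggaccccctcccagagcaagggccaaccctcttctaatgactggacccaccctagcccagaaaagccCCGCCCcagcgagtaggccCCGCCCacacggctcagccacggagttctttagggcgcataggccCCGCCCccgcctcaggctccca

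In the 250 bases before the Ckb start, TATAAA began 28 bases before the start and CCAAT began 46 and 16 bases before it. The Gamt stretch held GGGCGG on the opposite strand at 3 places, 86, 67 and 22 bases before the start, and neither TATAAA nor CCAAT. Before the second Ckmt1 start there was a single match, CCAAT on the opposite strand at 242 bases, and the first start had TATAAA on the opposite strand 31 bases before it, inside the annotated exon and so not shown. Of 32851 RefSeq stretches of the same length, 12.4% held TATAAA, 33.8% CCAAT, 32.7% GGGCGG and 13.0% CAGCTG on either strand. Ckb and Gamt were rich in the pair CG, with 16 and 12 against a median of 6 over all stretches, while the Ckmt1 stretches had 4 and 9. Among the members not shown, Gatm, which was at or near 0 in these cells, had 17, Ckm had 6 and Ckmt2 had 2. A match describes letters only, and binding at these places was not measured here.

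Ckmt1, the ubiquitous mitochondrial kinase, was higher at 39 °C than at 37 °C in the sums over all cells and in each phase. In the sums over all kept cells it stood at 19.3, 16.0, 19.1 and 14.9 CPM (scaled with TMM factors) in the 37 °C libraries and at 94.4, 98.5, 90.1 and 89.2 CPM in the 39 °C libraries. The lowest 39 °C library was therefore far above the highest 37 °C library, and the spread within each temperature was small beside the gap. The means were 17.3 ± 2.21 CPM and 93.0 ± 4.27 CPM (SD, n = 4 libraries each), a log2 fold change of 2.42 ± 0.07 (SE) or 5.36-fold. This is the contrast on which Ckmt1 was selected, so no p-value is given for it. When a difference was called as the study did, at an adjusted p below 0.01 with a log2 change beyond 1.5, 5.83% of the 15810 genes tested differed in all cells, and 2.36% of 14626 in G1 cells.

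Ckb, the cytosolic kinase of brain, moved the other way. It was at 12.2, 13.8, 13.4 and 16.1 CPM in the 37 °C libraries and at 3.74, 3.10, 3.15 and 3.78 CPM in the 39 °C libraries, with no overlap. Its log2 fold change was -2.02 ± 0.10 (by the quasi-likelihood test of edgeR, adjusted p = 2.13e-12), so that its level was 4.06-fold lower at 39 °C. Ckm, the muscle-type cytosolic kinase, was near the limit of detection, with 28 to 54 UMIs in a 37 °C library and 41 to 71 in a 39 °C library. Its levels overlapped between temperatures, 0.983 to 1.89 CPM against 1.55 to 4.03 CPM, and its log2 fold change of 0.44 ± 0.26 did not pass the test (edgeR, adjusted p = 0.159), although it did with no filter on low counts (adjusted p = 0.0333). Ckmt2, the mitochondrial kinase of heart and muscle, had no UMI in any library, which allows a level of up to 0.0265 CPM over the 113220605 UMIs at 37 °C and 0.0308 CPM over the 97313978 UMIs at 39 °C by counting error alone.

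Of the enzymes that make creatine, the one for the second step was measured and the one for the first step was at or near 0. Gamt, which methylates guanidinoacetate to creatine, stood at 56.6, 61.8, 58.6 and 64.3 CPM in the 37 °C libraries and at 22.0, 24.6, 24.7 and 23.6 CPM in the 39 °C libraries. All 39 °C libraries lay below all 37 °C libraries, with a log2 difference of -1.34 ± 0.05 (edgeR, adjusted p = 8.43e-14), or 2.54-fold lower. Gatm, which joins arginine and glycine into guanidinoacetate, had no UMI at 37 °C and a single UMI in replicate 4 at 39 °C, a pooled level of 0.0103 CPM with an exact 95% Poisson interval of 0.00026 to 0.0573 CPM. The transporter Slc6a8 was at 37.0 to 42.5 CPM at 37 °C and at 61.1 to 66.9 CPM at 39 °C, without overlap, a log2 difference of 0.66 ± 0.05 (edgeR, adjusted p = 1.10e-09).

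Thus 2 of the 3 tested members other than Ckmt1 passed an adjusted p under 0.05 in all cells, both lower at 39 °C. Many genes differed between these cultures: 62.0% of the 15810 genes tested passed, 31.5% higher and 30.5% lower at 39 °C, so passing by itself was the usual outcome. The median log2 fold change over all tested genes was 0.02. How many of all genes had no overlap between the temperatures is not given here.

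**Figure D1:**
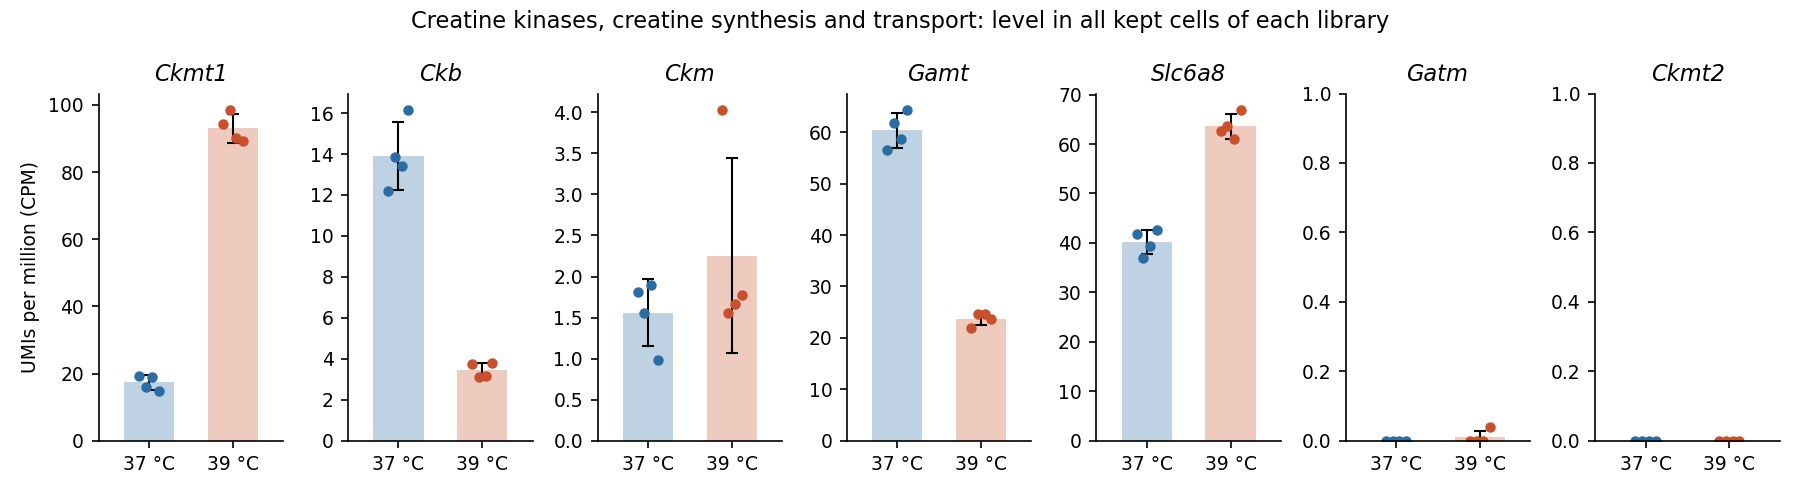
Level of each gene in CPM (y axis, a separate linear scale for each gene) in the sums over all kept cells, for 4 libraries at 37 °C in 10% serum (blue) and 4 at 39 °C in 0.5% serum (orange). Points are libraries, bars are means and whiskers are SD. Ckmt1 and Slc6a8 are higher at 39 °C without overlap, Ckb and Gamt are lower without overlap, Ckm overlaps, Gatm has a single UMI and Ckmt2 has none.

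Because the phases of the cell cycle were so unequal between temperatures, each contrast was repeated within a phase. In G1 cells Ckmt1 was at 30.0, 27.2, 30.4 and 21.4 CPM at 37 °C and at 99.5, 105, 97.7 and 96.2 CPM at 39 °C, a log2 fold change of 1.86 ± 0.08 or 3.62-fold, which is again a description. In S cells its level was 10.0 to 13.0 CPM against 59.7 to 72.8 CPM, a log2 fold change of 2.59 ± 0.09, and in G2M cells 17.8 to 24.2 CPM against 65.4 to 110 CPM, a log2 fold change of 1.97 ± 0.13. The temperatures did not overlap in any of the phases. Scoring the phases of each library by itself gave 2.15, 2.84 and 2.56 in G1, S and G2M cells.

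Ckb and Gamt were lower at 39 °C within each phase as well. In G1 cells Ckb was at 8.54, 9.29, 5.36 and 8.11 CPM at 37 °C and at 3.69, 3.02, 3.03 and 3.58 CPM at 39 °C, a log2 difference of -1.25 ± 0.17 (edgeR, adjusted p = 1.51e-06). In S cells Ckb differed by -1.87 ± 0.17 on the log2 scale (edgeR, adjusted p = 2.09e-10) and in G2M cells by -1.95 ± 0.31 (edgeR, adjusted p = 2.49e-06), although the latter rested on 17 UMIs at 39 °C. Gamt fell by 1.18 on the log2 scale in G1 cells (SE 0.07, edgeR, adjusted p = 1.50e-12), by 1.32 in S cells (SE 0.08, adjusted p = 3.66e-14) and by 1.32 in G2M cells (SE 0.15, adjusted p = 1.99e-09). The share of all tested genes that passed was 45.4% in G1 cells, with 24.0% higher and 21.4% lower at 39 °C, 47.0% in S cells and 28.7% in G2M cells.

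Ckm rested on few molecules in every phase. In G1 cells it had 18 UMIs at 37 °C and 131 at 39 °C, with levels of 0.641 to 1.08 CPM against 1.39 to 1.88 CPM and a log2 difference of 0.93 ± 0.32 (edgeR, adjusted p = 0.0198). That call was lost with DESeq2 (adjusted p = 0.0614), with phases scored for each library by itself (adjusted p = 0.0891), without 37 °C replicate 1 (adjusted p = 0.0661) and without 37 °C replicate 4 (adjusted p = 0.0632). In S cells 14 UMIs at 37 °C stood against 29 at 39 °C, of which 14 came from replicate 1, a log2 difference of 2.81 ± 0.53 (edgeR, adjusted p = 6.34e-05) that was 2.14 without that replicate (adjusted p = 0.00198). In G2M cells the log2 fold change of 1.65 ± 0.48 (edgeR, adjusted p = 0.00691) was carried by 39 °C replicate 1. Without that replicate it was 0.20 on the log2 scale (edgeR, adjusted p = 0.790). The G2M difference also did not pass with DESeq2 (adjusted p = 0.0598) or with phases scored for each library by itself (adjusted p = 0.120).

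The phases were also compared within each temperature. The G1 values of Ckmt1 are part of what it was chosen by, so its phase differences are a description with no test, and the other measured members were tested. At 37 °C Ckmt1 was lower in S than in G1 cells by 1.27 ± 0.09 on the log2 scale, in 4 of 4 libraries, and it was lower in G2M than in G1 cells by 0.43 ± 0.08, also in 4 of 4. Ckb had the opposite order, higher in S cells by 0.98 ± 0.12 (edgeR with library as a block, adjusted p = 9.15e-12) and in G2M cells by 0.98 ± 0.12 (adjusted p = 1.68e-11), in 4 of 4 libraries each. Gamt was higher in S cells by 0.55 ± 0.05 (adjusted p = 9.54e-18) and slightly lower in G2M cells, by 0.18 ± 0.06 (adjusted p = 0.00645), a call that was lost without 37 °C replicate 1 (adjusted p = 0.0682). Slc6a8 differed little, by -0.21 ± 0.06 in S and -0.20 ± 0.06 in G2M cells (adjusted p = 0.00349 and 0.00468), and neither passed without 37 °C replicate 4 (adjusted p = 0.0508 and 0.0744). At this temperature 44.3% of genes passed for S and 44.7% for G2M against G1.

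At 39 °C the order of the phases was alike for Ckmt1, which was lower in S than in G1 cells by 0.56 ± 0.06 on the log2 scale in 4 of 4 libraries. Its difference in G2M cells, -0.32 ± 0.09 and lower in 3 of 4 libraries, changed with the alternatives: it was -0.21 without 39 °C replicate 3 and turned to 0.33 with phases scored for each library by itself. The same scoring took the G2M difference at 37 °C to -0.07, whereas the S differences stayed below 0 under each alternative run. Gamt was higher in S cells by 0.42 ± 0.09 (edgeR with library as a block, adjusted p = 1.71e-05), and its G2M value of -0.32 ± 0.17 did not pass (adjusted p = 0.156). Ckb did not pass in S cells, 0.36 ± 0.23 (adjusted p = 0.230), nor in G2M cells, 0.30 ± 0.39 (adjusted p = 0.636), on 58 and 17 UMIs. Among all genes 37.7% passed for S and 26.0% for G2M.

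The level of Ckm was highest in G2M cells at both temperatures. At 37 °C it was at 4.18, 3.54, 4.31 and 1.99 CPM in the G2M cells of the 4 libraries, above the G1 cells of each, with a log2 difference of 2.02 ± 0.32 (edgeR with library as a block, adjusted p = 3.04e-08). In S cells it was lower than in G1, at -1.498 ± 0.51 (adjusted p = 0.0118), a call that was lost without 37 °C replicate 2 (adjusted p = 0.0923) and with phases scored for each library by itself (adjusted p = 0.0697). At 39 °C the G2M cells held 63.6, 6.64, 2.18 and 3.86 CPM, each above the G1 cells of the same library, and the log2 difference was 2.79 ± 0.34 (adjusted p = 1.75e-13). Replicate 1 stood apart, with 30 UMIs in 28 cells, and without it the difference was 1.31 (adjusted p = 0.0299). Leaving out the cell with the most Ckm UMIs of each library gave 1.78 at 37 °C (adjusted p = 2.29e-06) and 2.05 at 39 °C (adjusted p = 6.52e-06).

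Whether the phase differences themselves differed between temperatures was tested by an interaction term for the members other than Ckmt1. None passed with edgeR: for S against G1 the terms, 39 °C minus 37 °C, were -0.59 ± 0.25 for Ckb (unadjusted p = 0.0196, adjusted p = 0.121), 1.85 ± 0.75 for Ckm (unadjusted p = 0.0153, adjusted p = 0.103) and -0.10 ± 0.09 for Gamt (adjusted p = 0.580). Those for G2M were -0.65 ± 0.37, 0.81 ± 0.59 and -0.11 ± 0.17 (adjusted p = 0.364, 0.523 and 0.806). With phases scored for each library by itself, 3 members passed for S and Ckb passed for G2M, at edgeR adjusted p between 0.000920 and 0.0358. That scoring also raised the number of all genes that passed, to 2368 for S and 2728 for G2M. Without 37 °C replicate 1 Ckb passed for S (edgeR, adjusted p = 0.0471). In the main scoring 1577 genes passed for S and 948 for G2M, or 11.1% and 6.69% of the terms over all genes. For Ckmt1 the terms were 0.75 ± 0.11 for S and 0.13 ± 0.12 for G2M, given as a description because the temperature difference in G1 cells is part of them.

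**Figure D2:**
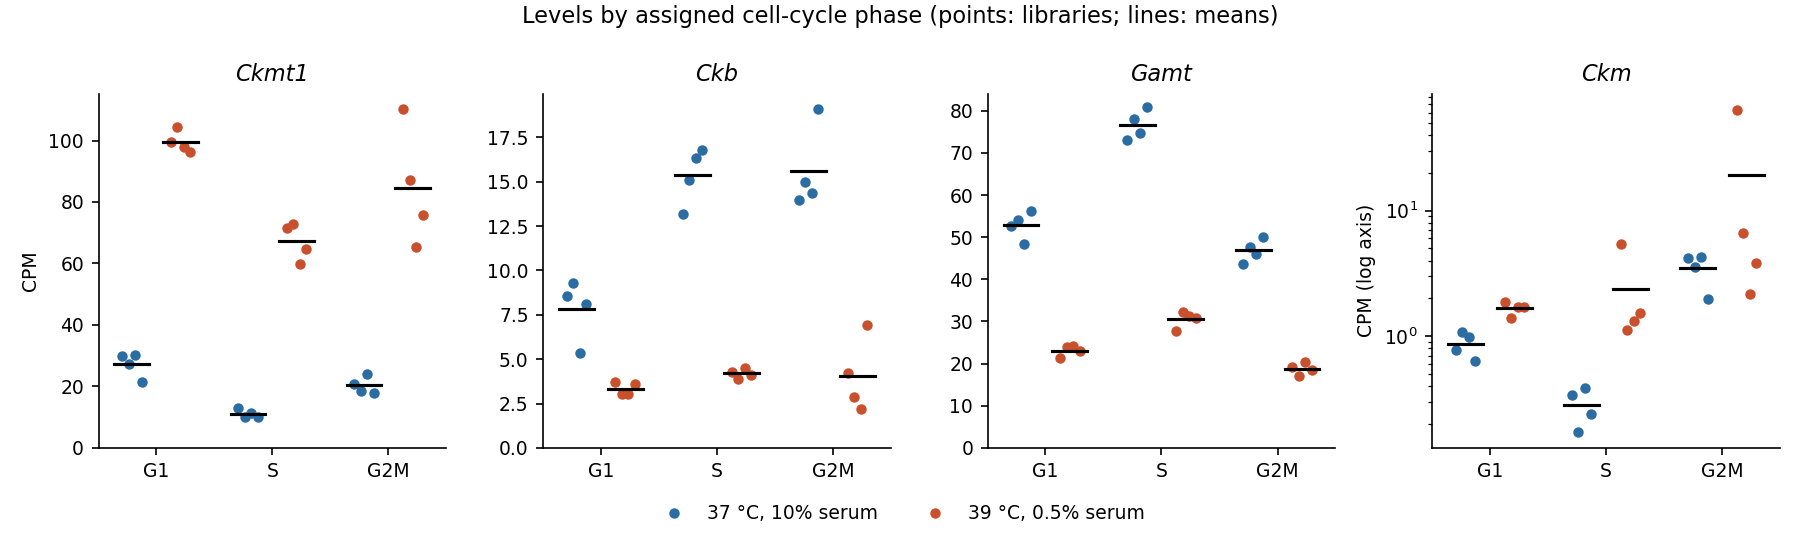
Level of Ckmt1, Ckb, Gamt and Ckm in CPM (y axis, linear and from 0 except for Ckm, which is on a log axis) in cells assigned to G1, S and G2M (x axis) at 37 °C (blue) and 39 °C (orange). Points are the 4 libraries of each temperature and black lines are means. Ckmt1 is lowest in S cells at both temperatures, Ckb is low in G1 cells at 37 °C, and Ckm in G2M cells of 39 °C replicate 1 stands at 63.6 CPM.

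The makeup of the kinases turned from a mixture of Ckmt1 and Ckb to nearly Ckmt1 alone. UMI counts taken at the 3′ end carry no length term, so the kinases can be set side by side as molecules captured, without a correction for how well each is captured. Ckmt1 gave 58.0, 51.0, 55.5 and 46.5% of the creatine kinase UMIs in the 37 °C libraries and 92.4, 95.5, 94.9 and 94.1% in the 39 °C libraries. Ckb gave 42.5 ± 6.12% at 37 °C and 3.50 ± 0.424% at 39 °C, and Ckm 4.74 ± 1.14% and 2.27 ± 1.13% (SD, n = 4). In G1 cells alone Ckmt1 already made up 75.6 ± 5.26% at 37 °C and 95.2 ± 0.582% at 39 °C, and in S cells at 37 °C 41.6 ± 5.13%. The summed level of all kinases was 31.4 to 34.4 CPM at 37 °C and 94.7 to 103 CPM at 39 °C. These shares contain the difference on which Ckmt1 was chosen and were not tested.

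**Figure D3:**
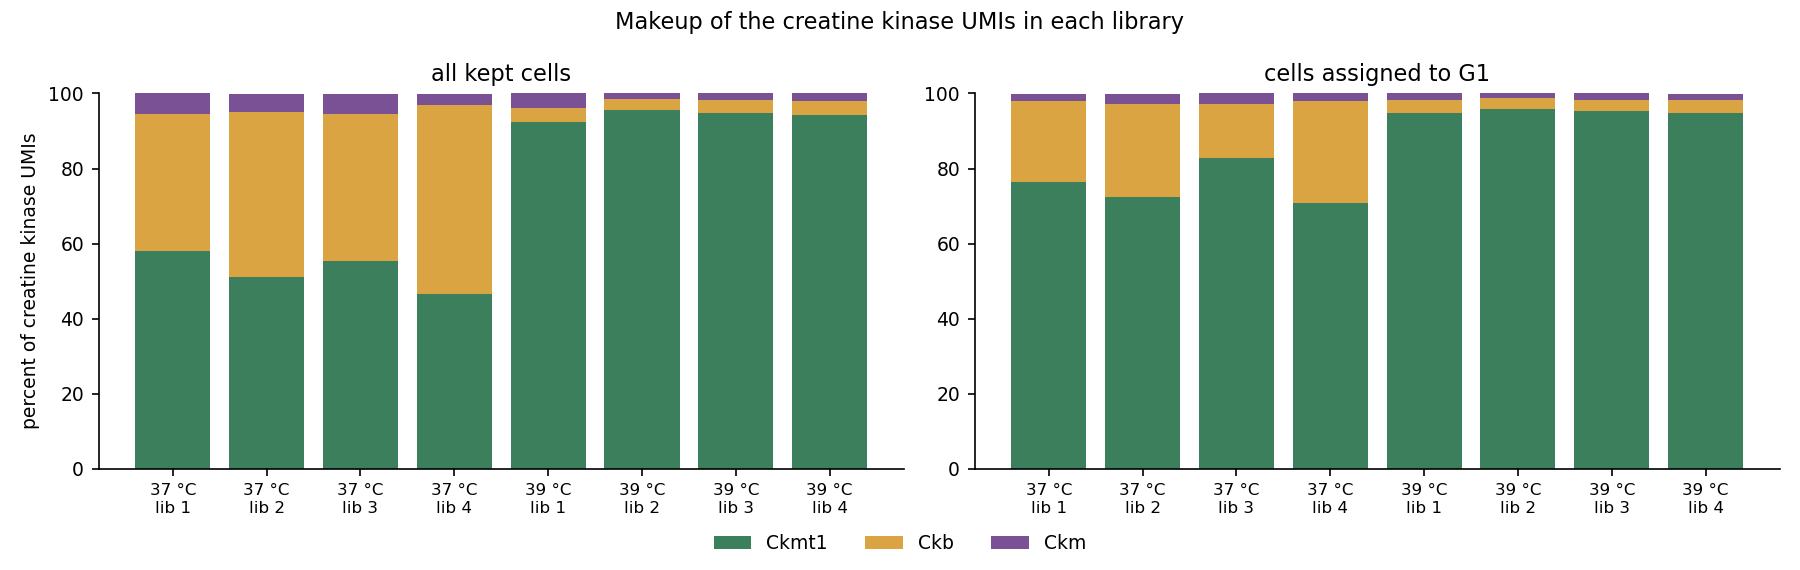
Percent of creatine kinase UMIs (y axis) that came from Ckmt1 (green), Ckb (yellow) and Ckm (purple) in each of the 8 libraries (x axis), in all kept cells (left) and in cells assigned to G1 (right). Ckmt1 gives 46.5 to 58.0% in the 37 °C libraries and 92.4 to 95.5% in the 39 °C libraries, and in G1 cells 70.9 to 82.7% and 94.7 to 95.9%.

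Within libraries the higher Ckmt1 level at 39 °C was spread over many cells. A Ckmt1 UMI was seen in 15.9 ± 3.12% of cells at 37 °C and 46.4 ± 8.71% at 39 °C (SD, n = 4), but these shares move with depth, and the median depth of a library ran from 6676 to 16665 UMIs. When each cell was thinned to 2000 UMIs, which left out 119 cells at 37 °C and 310 at 39 °C, the shares were 3.05 to 4.32% and 15.1 to 17.5%. Gamt was seen in 11.0 to 11.6% of the thinned cells at 37 °C and 4.18 to 4.89% at 39 °C. For Ckb the shares were 2.07 to 3.11% and 0.545 to 0.964%, and for Slc6a8 7.08 to 8.84% and 10.8 to 12.3%. Free RNA in droplets could give some of these UMIs, and a clonal line holds no cell type that should lack the genes, so that background was not measured. The richest 1% of cells held 7.46 to 9.12% of Ckmt1 UMIs in the 39 °C libraries and 16.7 to 19.3% in the 37 °C libraries. At 39 °C they held 33.3 to 50.6% of Ckb UMIs and 77.5 to 100% of Ckm UMIs. This share depends on how many cells hold a gene at all. Since Ckm was seen in only 0.887 to 2.23% of the cells of a 39 °C library, its share had to be high, and no contrast with Ckmt1 is drawn from it.

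The Ckmt1 level was also set beside the depth and the mitochondrial share of the cells. In G1 cells split into 3 equal sets by their UMI total within a library, Ckmt1 ranged from 18.4 to 50.1 CPM over all sets of the 37 °C libraries and from 89.0 to 109 CPM over those of the 39 °C libraries. The set with the highest total had 0.512 to 0.951 times the level of the set with the lowest in the 37 °C libraries. In the 39 °C libraries it had 0.897 to 1.11 times. Split by mitochondrial share, the set with the highest share had 0.718 to 0.882 times the Ckmt1 level of the set with the lowest in the 39 °C libraries, lower in 4 of 4, and 0.529 to 1.34 times in the 37 °C libraries. Cells with both Ckmt1 and Ckb after thinning were too few to describe, between 0 and 2 in the G1 cells of a library.

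Ckm UMIs were found in few cells. The split of cells by Ckm was chosen after the data were seen, and the values in it were not tested. A Ckm UMI was found in 232 of 18351 cells, 0.897 to 1.66% of a 37 °C library and 0.887 to 2.23% of a 39 °C library, and in 166 of these cells it was a single UMI. Of the 113 such cells at 37 °C, 86 were assigned to G2M, 76.1% against 34.0% of cells without Ckm, and at 39 °C it was 16.0% against 4.29%. The richest cell, in the G2M cells of 39 °C replicate 1, held 21 of the 71 Ckm UMIs of its library together with 9 Ckmt1 UMIs.

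Ckmt1 was higher in cells with Ckm in 8 of 8 libraries. Against the other cells of the same library, weighted to the same phases, it stood at 97.2, 93.5, 110 and 67.9 CPM instead of 18.8, 16.2, 21.5 and 16.6 CPM at 37 °C, a ratio of 4.10 to 5.76. At 39 °C it was at 158, 163, 146 and 198 CPM instead of 92.8, 95.9, 90.0 and 89.1 CPM, a ratio of 1.62 to 2.22. Of the 4 values in cells with Ckm at 37 °C, the one of replicate 4 lay below every value of the other cells at 39 °C. Gamt was lower in cells with Ckm in 6 of 8 libraries, with ratios from 0.456 to 1.22, and Slc6a8 was higher in some and lower in others, 0.585 to 1.33. Ckb had 17 UMIs in such cells at 37 °C, a mean of 10.2 CPM against 14.1 CPM in the other cells, and none at 39 °C. At 39 °C the other cells had a mean of 3.61 CPM. The cells with Ckm held only 201756 to 366852 UMIs in a 39 °C library, so few Ckb UMIs could be seen there. Median UMI totals of cells with and without Ckm were 8635 to 16207 against 9839 to 15363 at 37 °C and 5321 to 15258 against 6697 to 16734 at 39 °C, and the median mitochondrial share was higher in cells with Ckm in 8 of 8 libraries, 7.92 to 9.01% against 7.55 to 8.85%. The part of those differences in the result was not tested.

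**Figure D4:**
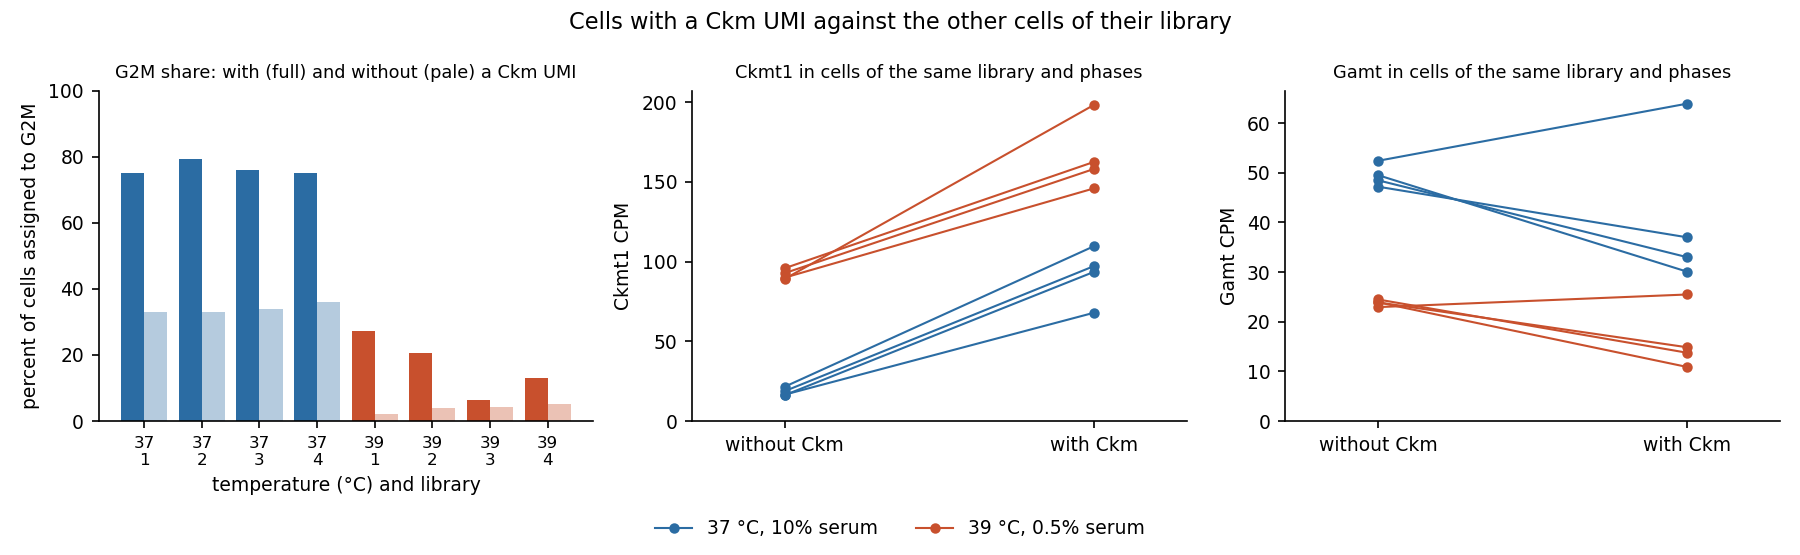
Left, percent of cells assigned to G2M (y axis) among cells with a Ckm UMI (full colour) and without one (pale) in each library (x axis). Centre and right, Ckmt1 and Gamt in CPM in cells without and with a Ckm UMI, each line a library, with the cells without Ckm weighted to the phases of those with it. Ckmt1 is higher with Ckm in all 8 libraries and Gamt is lower in 6 of 8.

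The genes around the members behaved as follows. Ppip5k1, the nearest gene before Ckmt1, 2318 bases away on the opposite strand, differed by 0.44 ± 0.05 on the log2 scale (edgeR, adjusted p = 5.42e-07), and Strc, which overlaps the 3′ end of Ckmt1 by 10 bases on the opposite strand, had 2 UMIs in all. Antisense genes inside Ckm and Ckmt2 had 2 UMIs and 1 UMI. The genes whose levels over the 24 library-by-phase sums were most like Ckmt1, among 3357 compared, included Celf5, Pqlc3, 1700007K13Rik and Arl8a, with Pearson r of 0.991, 0.981, 0.981 and 0.981. After each temperature was centred on its own mean the values were 0.938, 0.863, 0.876 and 0.911. For Ckb they were Pgam1, Vdac2, Pgk1, Gps1 and Atp5a1, at 0.945, 0.944, 0.939, 0.932 and 0.931, and at 0.720, 0.770, 0.684, 0.731 and 0.624 after centring. These sums share libraries and the same 2 temperatures, and the correlations are a description.

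Around the members, 64 genes in 6 lists cover the supply and the partners of the creatine system. Of the 57 tested in all cells, 17 were higher and 22 were lower at 39 °C, a share to be read against the 62.0% of all genes, with a median log2 fold change of -0.14 against 0.02 over all tested genes. In G1 cells 14 of 55 were higher and 20 were lower, where 24.0% of all tested genes were higher and 21.4% were lower.

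The mitochondrial exchange list, the ATP and phosphate carriers and the outer membrane channels through which mitochondrial creatine kinase is known to trade, had 6 of 7 genes lower at 39 °C and none higher, where 30.5% of all tested genes were lower. Slc25a5, a carrier that swaps ATP for ADP, went from 359 ± 29.0 to 172 ± 5.34 CPM, a log2 difference of -1.06 ± 0.06 (edgeR, adjusted p = 5.58e-12), and its relative Slc25a4 from 1190 ± 62.0 to 803 ± 25.8 CPM, -0.57 ± 0.05 (adjusted p = 2.48e-08). The channel Vdac3 fell by 0.64 on the log2 scale. For Slc25a5, Slc25a4 and Vdac3 the log2 differences in G1 cells alone were -0.65, -0.47 and -0.38. In G1 cells 5 of 6 tested were lower, with a median log2 fold change of -0.33, where 21.4% of all tested genes were lower and their median was 0.04.

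Other enzymes that move phosphate between nucleotides were mixed, 2 of 15 higher and 7 lower, where 31.5% of all tested genes were higher and 30.5% lower. Ak1, the cytosolic adenylate kinase, rose by 0.57 ± 0.05 on the log2 scale (edgeR, adjusted p = 6.16e-09) from 197 ± 11.8 CPM, and the mitochondrial nucleoside diphosphate kinase Nme4 rose by 0.90 ± 0.05 (adjusted p = 1.45e-11). Nme1, a cytosolic nucleoside diphosphate kinase, fell by 1.24 (SE 0.07, adjusted p = 8.47e-12), Nme2 by 0.89, Ak6 by 0.59 and Nme6 by 0.51. The Nme2 value did not pass with DESeq2 (adjusted p = 0.0881) or without 37 °C replicate 3 (adjusted p = 0.0638). In G1 cells the log2 differences were 0.46 for Ak1 and 0.71 for Nme4. They were -0.87 for Nme1, -0.92 for Nme2, -0.21 for Ak6 and -0.33 for Nme6. The G1 value of Nme6 did not pass without 37 °C replicate 1 or 4 (edgeR, adjusted p = 0.0565 and 0.0756), nor that of Nme2 with DESeq2 (adjusted p = 0.0536). Nme1 and Nme2 are near-identical neighbours, and how counting split their reads is uncertain.

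Arginine and glycine are the starting materials for Gatm, which was at or near 0 here. In that list 5 of 12 tested genes were higher and 3 were lower, beside 31.5% higher and 30.5% lower among all tested genes. Slc7a2, a transporter of arginine and other cationic amino acids, went from 11.1 to 15.4 CPM in the 37 °C libraries to 48.5 to 55.1 CPM in the 39 °C libraries, a log2 difference of 1.94 ± 0.08 (edgeR, adjusted p = 6.00e-14), and in G1 cells by 0.92 ± 0.10 (adjusted p = 5.75e-08). Slc7a3, of the same family, rose by 1.38 ± 0.33 (adjusted p = 0.00117) on 99 UMIs, and its value of 0.69 in G1 cells did not pass (adjusted p = 0.252). Ass1, which makes the precursor of arginine, rose by 0.64 ± 0.06 in all cells and 0.26 ± 0.07 in G1 cells. The serine hydroxymethyltransferases that make glycine fell, Shmt2 by 1.16 (SE 0.07) and Shmt1 by 0.79 (SE 0.07). Their log2 differences in G1 cells were smaller, -0.70 for Shmt2 and -0.40 for Shmt1.

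Gamt takes its methyl group from S-adenosylmethionine. Of 10 tested genes that supply or use that methyl group, 4 were higher and 2 were lower. The shares among all tested genes were 31.5% and 30.5%. Both of those lower passed a log2 fold change of 0.5 in size: Ahcyl1, related to the enzyme that clears the spent methyl donor, fell by 0.76 (SE 0.05, edgeR, adjusted p = 5.80e-11), and Pemt, which methylates phosphatidylethanolamine, fell by 0.90 (SE 0.14, adjusted p = 1.24e-05). In G1 cells the log2 differences were -0.42 for Ahcyl1 and -1.04 for Pemt.

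Energy sensing genes, which encode AMP-activated kinase and the regulators of mitochondrial genes, had 5 of 12 tested higher and 4 lower. These counts are to be read against the 31.5% of all tested genes that were higher and the 30.5% that were lower. Prkaa2, a catalytic subunit of that kinase, rose by 1.00 ± 0.08 on the log2 scale (edgeR, adjusted p = 2.83e-09) from 5.36 ± 0.605 to 10.7 ± 0.0329 CPM, its upstream kinase Stk11 rose by 0.68 ± 0.05 (adjusted p = 2.94e-10), and the nuclear receptor Esrra rose by 0.85 ± 0.06 (adjusted p = 1.28e-10). The coactivator Ppargc1a fell by 0.59 (SE 0.18, adjusted p = 0.00815) and the regulatory subunit Prkag3 by 2.24 (SE 0.24, adjusted p = 1.18e-07), both under 3 CPM in every library. In G1 cells the log2 differences were 0.94 for Prkaa2, 0.69 for Stk11, 0.68 for Esrra, -1.24 for Ppargc1a and -1.48 for Prkag3. The G1 value of Prkag3 did not pass without 37 °C replicate 2 or 4 (edgeR, adjusted p = 0.0919 and 0.0908).

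**Figure D5:**
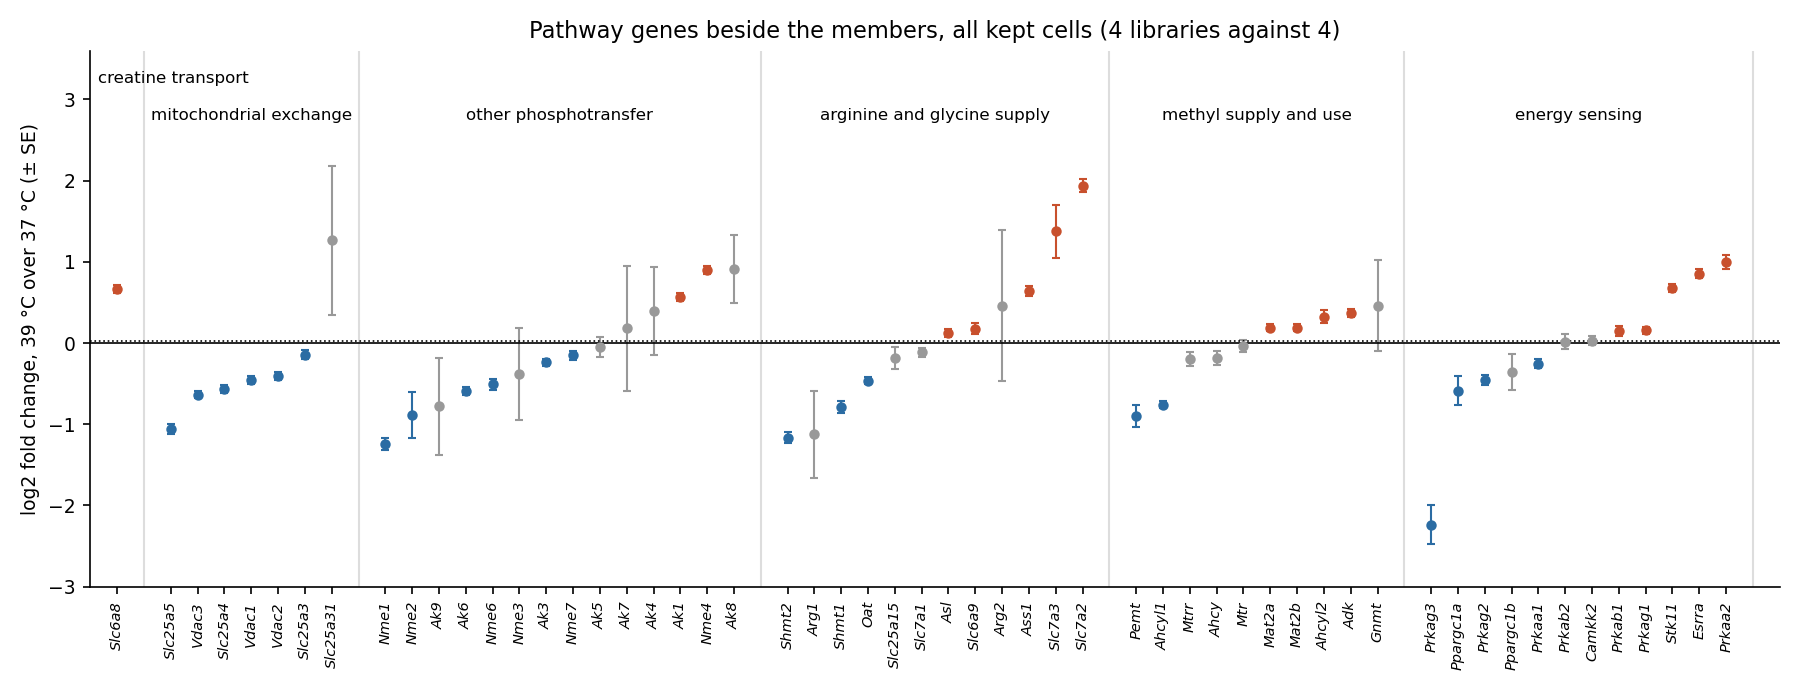
Log2 fold change of 39 °C over 37 °C in all kept cells (y axis, whiskers SE) for 56 of the 57 tested genes of the 6 lists beside the members, ordered within each list. Orange and blue points passed an adjusted p under 0.05 higher and lower at 39 °C, grey points did not, and the dotted line is the median of all tested genes. In the mitochondrial exchange list 6 of 7 genes passed as lower, where 30.5% of all tested genes did, and Slc7a2 has the highest value of any gene shown, 1.94.

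Some markers of cell types differed between the temperatures as well. The counts below are to be read against all tested genes, of which 31.5% were higher and 30.5% lower at 39 °C. The 8 neuron markers summed to 164 to 197 CPM at 37 °C and 77.3 to 97.5 CPM at 39 °C, 3 of 5 tested being lower, none higher and Dcx at 0, with Stmn2 the most abundant. The 8 mesenchymal markers summed to 2051 to 2085 CPM and 1090 to 1121 CPM, 5 of 7 tested being lower and 1 higher. The 6 astrocyte markers were at 14.7 to 21.6 and 14.8 to 17.2 CPM, 1 of 4 tested being lower and none higher. The 8 oligodendrocyte markers were at 14.4 to 17.4 and 11.5 to 13.3 CPM, 1 of 3 tested being lower and 1 higher, with Olig1, Olig2, Sox10 and Mog at 0. The 8 dopaminergic markers were at 17.9 to 19.4 and 17.0 to 19.2 CPM, 1 of 4 tested being lower and none higher, and of the striated muscle markers 6 of 14 tested were lower and 3 higher. The 8 neural precursor markers summed to 5839 to 6218 and 5361 to 5930 CPM, mostly Vim, and 3 of 5 tested were higher and 1 was lower. Within that list Nes had a mean of 467 CPM at 37 °C and 108 CPM at 39 °C, Sox2 of 55.4 and 76.5 CPM, and Hes1 of 119 and 195 CPM. Their part in the differences of Ckb, Gamt and Ckmt1 was not tested.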

How the data were processed

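Single-cell libraries were made with a droplet 3′ kit. The authors aligned reads to mm10 and counted UMIs with Cell Ranger 3.0.1, and deposited 1 matrix of raw UMI counts per library, genes by cells. Whether counting used strand is not given in the sources used here. The members and the gene lists were chosen with earlier results of these data known.

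Cells with over 15% mitochondrial UMIs, or with under 200 or over 6000 genes, were left out, and no doublet caller was run. Phases were assigned with Seurat 5.3.0 over all cells together. Counts were summed per library, or per library and phase, with 1 library as the replicate, so depth was 17166686 to 29633818 UMIs per sum over all cells. Genes averaging at least 1 count in the fitted sums were tested with edgeR 4.0.16 (TMM scaling, quasi-likelihood test, two-sided) in R 4.3.3, with library as a block between phases and Benjamini-Hochberg adjustment over all genes tested, and a gene passed at an adjusted p under 0.05. Intervals and limits from 3 counts cover counting error only. The fits were tested on simulated data. Within a temperature, every pair of libraries differed by more than sampling noise.

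Genes of the pathway lists are named where they passed in all cells with a log2 fold change of at least 0.5 in size, and Slc6a8 in any case. Likeness used Pearson r over 24 sums (log2 CPM, prior count 0.5) among genes with a mean of at least 50 CPM, giving the 5 highest. Single values of 2 genes that these rules name are not reported here, and their lists' counts include them. Alternatives were DESeq2 1.42.0, other scalings, gene filters and cell filters, other phase scoring, replicate or library blocks, and each library left out.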

Additional observations from a re-analysis of the deposited data

Results flagged for a closer look

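Of 88 groups of 4 libraries examined, 5 held a library whose distance to its nearest neighbour took up more of the range than Dixon's 95% limit allows, and chance alone flags about 1 group in 20. Of these, 4 were Ckm values of 39 °C replicate 1. Its Ckm level was 63.6 CPM in G2M cells, against 2.18 to 6.64 CPM in the other libraries, 5.47 CPM in S cells, against 1.12 to 1.54 CPM, and 4.03 CPM in all cells, against 1.55 to 1.77 CPM. After thinning, a Ckm UMI was seen in 7.14% of its G2M cells, against 0.917 to 1.27% in the other libraries, and these G2M cells numbered 28. The other was Ckb, which was seen in 0.964% of the thinned cells of 39 °C replicate 2 and in 0.545 to 0.613% of those of the other 39 °C libraries.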

How the results depend on the processing

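Of 1972 values recomputed under alternatives for 123 results, 1903 kept their direction and side of the threshold or moved by less than the limit set for them, and 25 of the other 69 came from scoring the phases of each library by itself. That scoring gave log2 fold changes of Ckmt1 of 2.15 in G1, 2.84 in S and 2.56 in G2M cells, 545 genes past the study's thresholds in G1 cells and 7659 genes that passed in G2M cells. It took the G2M difference of Ckmt1 to -0.074 at 37 °C and 0.33 at 39 °C and that of Ckb at 39 °C to -0.35, and the interaction terms that passed to 3 members and 2368 genes for S and 1 member and 2728 genes for G2M. The filter of edgeR gave 229 genes past the study's thresholds in G1 cells. The S difference of Ckm at 39 °C was 0.31 in the main fit and did not pass (edgeR with library as a block, adjusted p = 0.538). With each library scored by itself it was 0.94 and passed (edgeR, adjusted p = 0.0240), and with DESeq2 it was -0.012. Without single libraries it ran from -0.26 (without replicate 1) to 0.52, its G2M interaction term from -0.70 (without the same replicate) to 1.32, and the G2M difference of Ckb at 39 °C from -0.19 (without replicate 4) to 0.53. The G2M interaction term of Slc6a8, -0.011, was 0.069 with library totals only, 0.0034 with the filter of edgeR, 0.028 with updated phase lists, 0.048 with each library scored by itself, and -0.11 to 0.056 without single libraries. The G2M difference of Ckmt1 at 39 °C ran from -0.41 to -0.21 (without replicate 3) with 1 to 2 members passing in the fit (Ckmt1, which has no test in the text, is in that count), and 0 to 1 member passed the S interaction (1 without 37 °C replicate 1). The difference in cells with a Ckmt1 UMI, 12.6 percentage points, was 23.4 at 5000 UMIs and 30.5 without thinning, and the Ckmt1 share of kinase UMIs at 37 °C was 75.6% in G1 cells alone. The cause of these changes was not tested.

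With the replicate number as a block, the log2 fold change of Ckmt1 in all cells was 2.43 and that of Ckb -2.03 (edgeR, adjusted p = 4.65e-12), and none of 76 values changed its call. The correlations of deviations between libraries of the same number were -0.12, -0.12, -0.09 and 0.29 over 8357 genes. Only for replicate 4 was the best match the library of the same number. These values do not settle whether the numbers pair the libraries, and the labels do not say. Ckm, Ckmt2 and Gatm had few or no UMIs, and whether more depth would change their values was not tested.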

Other observations

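Other genes were also compared between cells with a Ckm UMI and the other cells, with sums set against each other within each library and phase in 1 edgeR fit. Among genes with at least 50 CPM in both pooled sets, the highest log2 difference was that of Man2b1, a lysosomal mannosidase, at 2.10, with 605 CPM in cells with Ckm and 121 CPM in the others. The lowest were Ccdc80 at -1.84, Spp1 at -1.83, Tspan8 at -1.80, Acta2 at -1.69, Col1a2 at -1.62 and Nes at -1.55. The collagen gene Col1a2 had 200 CPM in cells with Ckm and 449 CPM in the others, and Nes, an intermediate filament gene of neural precursors, had 114 and 302 CPM. These genes are named for the size of their difference, in a split that was chosen after the data were seen and rests on 232 cells, so the values are a description with no test.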
